A study of Homo sapiens with 6 samples.

Results

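The regions described here are TRIM24 binding sites of moderate strength that were called in castration-resistant LNCaP-abl cells and in neither LNCaP library. They were chosen by 2 measured values, the peak score and the overlap with other peaks. A site was taken when its LNCaP-abl peak had a score of at least 15 and below 50 and shared not even 1 bp with a peak from LNCaP under vehicle or from LNCaP under dihydrotestosterone (DHT). The rule found 3756 sites among 20621 LNCaP-abl peaks, which is 18.2% of that list (95% exact Clopper-Pearson interval 17.7 to 18.7), and among 37470 peaks in all 3 lists. They are called the moderate sites below. The score is the authors' own −log10 value for each peak, of a p or a q, so a higher score marks a peak that stands out more clearly from its background.

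TRIM24 is a nuclear protein that binds chromatin through a PHD finger and a bromodomain, which together recognise histone H3 that lacks methylation at lysine 4 and carries acetylation further along its tail. It was first described as a partner of ligand-bound nuclear receptors, and in prostate cancer cells it is known as a coactivator of the androgen receptor whose protein is removed through the ubiquitin ligase adaptor SPOP. A chromatin immunoprecipitation and sequencing (ChIP-seq) peak marks a stretch of DNA recovered with the protein more often than its surroundings, whether TRIM24 touches histones there or is held by another factor.

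The tested cells were LNCaP-abl, a derivative of LNCaP that grows without androgen and was always kept in charcoal/dextran-stripped serum, sampled after 4 h of ethanol vehicle. They are set against 2 conditions of LNCaP, an androgen-dependent line from a prostate cancer metastasis. These cells were deprived of hormone for 72 h and then received 10 nM DHT, a potent natural androgen, or ethanol vehicle for 4 h. Each condition had 1 TRIM24 library made with the same antibody. No replicate spread is available, so no difference between conditions was tested, and the intervals below cover counting error over peaks only. Read numbers are not in the peak lists and the depth is unknown. Matching input libraries are named for the 3 conditions and were not analysed here. Positions are in hg19 and count from 1. An annotation or sequence of that build was not used here, so sites are named by position and no gene is assigned to them.

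Moderate sites were the majority of LNCaP-abl peaks in their score range. The range held 5900 LNCaP-abl peaks, of which 3756 (63.7%, 62.4 to 64.9) had no LNCaP peak. Over all LNCaP-abl scores that share was 57.8%. Because the rule used both values, this count describes the choice and is not a result. A LNCaP vehicle peak was missing at 71.7% (70.5 to 72.8) of the peaks in the range, against 64.0% over all scores, and a DHT peak at 81.2% (80.2 to 82.2), against 72.6% over all scores. The remaining 2144 peaks of the range, called the shared peaks of the range below, had a LNCaP partner. Of the 5900 peaks, 10.8% (9.98 to 11.6) were found in both LNCaP lists, 17.6% (16.6 to 18.6) under vehicle alone and 8.02% (7.34 to 8.74) under DHT alone. At scores of 50 and above, 49.8% (48.7 to 51.0) were found in both.

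The share without a LNCaP peak changed across the range itself. It was 73.5% (71.1 to 75.8) at scores of 15 to 20 and 73.2% (70.4 to 75.9) at 20 to 25. It then lay at 65.0% for 25 to 30, 62.7% for 30 to 35 and 55.2% for 35 to 40. At 40 to 45 it was 47.9% (43.7 to 52.0) and at 45 to 50 it was 49.7% (45.5 to 53.8), intervals that overlap widely. Across the range, peaks thus passed from mostly without to about as often with a LNCaP peak. The rule used both score and overlap, so this describes the choice and is not a result. The change was not limited to the range: the share was 92.8% at scores of 2 to 5, 43.2% at 50 to 60 and 9.13% at 100 to 150.

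**Figure D1:**
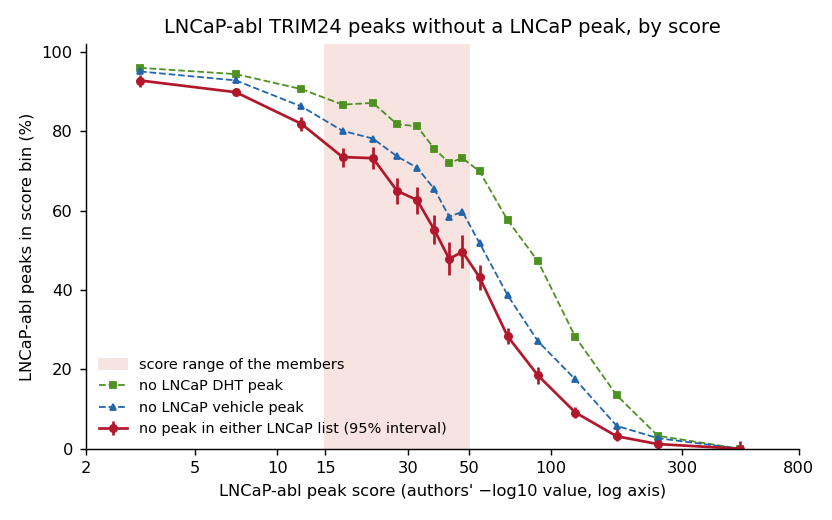
Share of LNCaP-abl peaks without a LNCaP peak (%), by LNCaP-abl score on a log axis; red points are peaks in neither LNCaP list with 95% exact intervals, green squares lack a DHT peak and blue triangles lack a vehicle peak, and the shaded band is the score range of the moderate sites. Across the band the red share goes from 73.5% in the bin of 15 to 20 to 49.7% in the bin of 45 to 50.

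The moderate sites had scores with a median of 25.9, near the 26.1 of all LNCaP-abl peaks, and their middle 50% lay between 19.6 and 35.4. The low end of the range was the most crowded, with 1002 sites at scores of 15 to 20 against 286 at 45 to 50. Scores came in steps: the 3756 sites held 741 distinct values, and the commonest, 15.1, belonged to 59 sites whose widths ran from 247 to 1126 bp. The lowest score in the set, 15.03, belonged to 10 sites, among them chr1:32930526-32930757, chr1:36852121-36852478, chr10:62538358-62538857, chr10:91461112-91461474 and chr10:115516778-115517038. Just outside, chr1:179560629-179561216, chr11:9779613-9780029 and chr11:10814091-10814360 scored 14.99. The peaks just above the upper bound were chr10:71211000-71211874 with 50.06, chr5:134094147-134094899 with 50.1 and chr11:60928437-60929304 with 50.3.

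The highest score in the set, 49.98, belonged to 14 sites, and 8 of these, taken in the order of chromosome names, show how unlike sites of one score can be. The site chr2:201676004-201677424 spanned 1421 bp and lay 51.4 kb from any other LNCaP-abl peak. On the same chromosome, chr2:128848615-128849212 spanned 598 bp and was likewise isolated, 62.3 kb from its LNCaP-abl neighbour. The narrowest of the 8, chr19:13030028-13030399, spanned 372 bp, followed by chr11:120894675-120895089 with 415 bp. Another site on chromosome 11, chr11:33795480-33796369, spanned 890 bp and lay 94.5 kb from the nearest LNCaP peak. The site chr10:30348089-30348738 was the farthest of the 8 from any LNCaP peak, at 289 kb, yet had a weak LNCaP-abl peak with a score of 3.96 only 80 bp away. Similarly, chr1:59042502-59043351 had a neighbour with a score of 3.35 at 303 bp. The last of the 8, chr17:26897986-26898926, had one with a score of 6.89 at 4934 bp. Of the 8, then, 4 had another LNCaP-abl-only peak as their nearest neighbour and the other 4 a LNCaP-abl peak that LNCaP shares.

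Moderate sites were narrower than the shared peaks of the range. Their median width was 525 bp (514 to 535), with 80% of them between 317 and 926.5 bp, while the shared peaks had a median of 646.5 bp (634 to 659). All LNCaP-abl peaks together had 528 bp. Part of the gap goes with score, since moderate sites crowd the low end of the range. Within bins of 5 score units the moderate sites were still the narrower class in each of the 7 bins. Their medians were 410 bp (397 to 423) against 469 bp (436 to 511) for shared peaks at scores of 15 to 20. At 30 to 35 they were 589.5 bp (572 to 611) against 675 bp (633 to 710), and at 45 to 50 662.5 bp (622 to 699) against 848.5 bp (782 to 874). The intervals of the 2 classes did not overlap in 5 of the bins and overlapped at 35 to 40 and 40 to 45. A wider peak also has more room to meet a LNCaP peak, so width and the rule are not independent. When only a reciprocal overlap of at least 50% counted as shared, the order turned round, with 585 bp for sites without and 463 bp for peaks with a LNCaP partner.

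**Figure D2:**
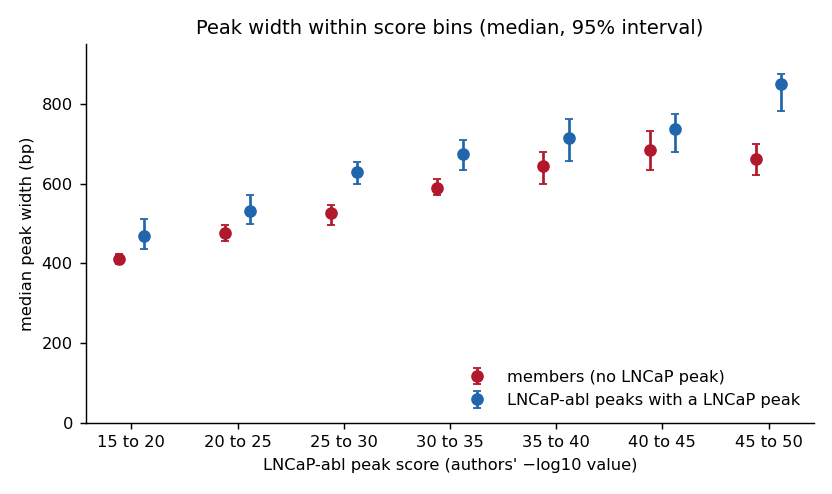
Median peak width (bp) in bins of 5 score units for moderate sites (red, left in each pair) and for LNCaP-abl peaks of the same score with a LNCaP peak (blue, right), with exact 95% intervals of the median. Red lies below blue in each bin, for example 410 against 469 bp at scores of 15 to 20.

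Seen by width, the share of the range without a LNCaP peak was 78.4% (73.6 to 82.7) among peaks under 300 bp and 43.4% (39.5 to 47.4) among those of 1000 bp or more. Score moved with width, with medians of 18.6 and 37.6 in these groups, and the share falls with score as given above. Very wide moderate sites were a small group: 270 of them (7.19%, 6.38 to 8.06) reached 1000 bp, against 352 (16.4%, 14.9 to 18.1) of the shared peaks. The widest, chr2:242088269-242090325, spanned 2057 bp with a score of 47.1 and lay 46.2 kb from a LNCaP peak. It was followed by chr13:111365556-111367393 with 1838 bp and chr17:18086096-18087911 with 1816 bp. Next came chr8:134581899-134583682 with 1784 bp and chr16:88728821-88730493 with 1673 bp. All 5 were more than 3 times as wide as the median moderate site. Their surroundings differed: the chromosome 13 and chromosome 8 sites had another LNCaP-abl peak within 93 and 89 bp, and the other 3 had none within 20 kb. In total the moderate sites covered 2.17 Mb, or 16.3% of the sequence under LNCaP-abl peaks.

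How a LNCaP peak scores at sites of this strength can be seen from the shared peaks of the range. At the 1671 with a vehicle peak, the LNCaP-abl score had a median of 32.6 and the vehicle score 6.02 (5.86 to 6.08), with 80% of vehicle scores between 3.66 and 11.1. At the 1108 with a DHT peak, the medians were 33.1 in LNCaP-abl and 6.34 (6.13 to 6.68) under DHT. These LNCaP scores were near the middle of their own lists, whose medians were 6.46 under vehicle and 6.82 under DHT. The LNCaP-abl scores were kept by the rule to a range that holds their list median of 26.1, so they allow no such comparison. Vehicle partners of LNCaP-abl peaks had a median score of 5.86 below the range and 7.98 above it. For DHT partners these medians were 6.67 and 7.39. Partner medians of about this size were therefore not limited to sites in the range, and scores are not on 1 scale across lists. Among the pairs in the range, a vehicle score of 15 or more occurred at 4.85% and a DHT score of 15 or more at 8.66%. The LNCaP score exceeded the LNCaP-abl score at 34 pairs of the range in each list. Below the range this held at 190 of 668 vehicle and 185 of 494 DHT pairs. Above it the counts were 2 of 5082 and 3 of 4052. The count thus goes with the LNCaP-abl score, which the rule fixed, and does not compare binding between the cells. A missing LNCaP peak at a moderate site says only that none passed the authors' threshold there, at a depth that is unknown.

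**Figure D3:**
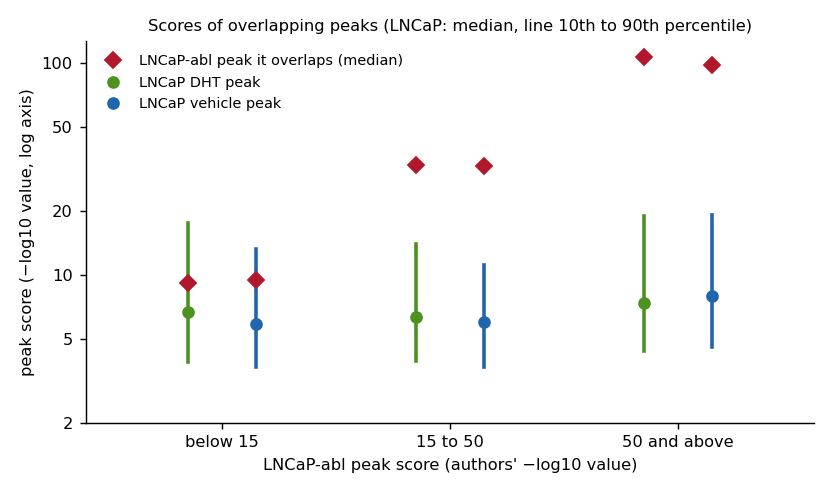
Scores of overlapping peaks on a log axis, grouped by the LNCaP-abl score; red diamonds are the median LNCaP-abl score of the pairs, and green and blue points with lines are the median and the 10th to 90th percentile of the DHT and vehicle scores. In the range of 15 to 50 the LNCaP medians are 6.34 under DHT and 6.02 under vehicle. The LNCaP-abl medians, about 33 in this range, are set by the grouping, and scores of different lists do not share a scale. The height of the diamonds over the points therefore does not compare binding between the cells.

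Most moderate sites had no called LNCaP peak less than 10 kb away, but few had none within 1000 kb. The rule had removed every overlap, and no background gap was computed. The median gap to the nearest LNCaP peak of either list was 39.9 kb (37.8 to 42.7). A LNCaP peak lay less than 10 kb away at 883 sites (23.5%, 22.2 to 24.9) and less than 100 kb away at 2679 (71.3%, 69.9 to 72.8). Only 50 sites (1.33%, 0.990 to 1.75) had none within 1000 kb. From 0.5 to 100 kb, higher-scoring LNCaP-abl-only peaks less often had a LNCaP peak nearby. Within 0.2 kb this did not hold, with 1.82% at scores of 50 and above against 1.30% of the moderate sites. The share within 10 kb was 18.1% (16.1 to 20.2) at scores of 50 and above and 30.4% (29.3 to 31.5) below 15, with the moderate sites in between. At 200 kb this order was gone, with 85.6% of the moderate sites, 86.0% of the higher-scoring and 85.8% of the lower-scoring peaks. No LNCaP peak within 1000 kb was found for 0.873% (0.452 to 1.52) of the higher-scoring and 1.21% (0.962 to 1.497) of the lower-scoring peaks, intervals that overlap that of the moderate sites. The nearer LNCaP peak was a vehicle peak at 62.0% (60.4 to 63.5) of the sites, in lists of 9744 vehicle and 7105 DHT peaks. With only the better-scoring 50% of each LNCaP list, 14.4% of the sites had a LNCaP peak within 10 kb. That setting makes more peaks count as LNCaP-abl only and also leaves fewer LNCaP peaks to measure to.

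The site farthest from any LNCaP peak, chrX:92928007-92928597 with a score of 17.0, had its nearest one 7735 kb away and was also 3011 kb from any other LNCaP-abl peak. The next, chr11:89955720-89956349, had a score of 35.7 and a gap of 3206 kb to LNCaP. A second site on the X chromosome, chrX:112084587-112084893 with a score of 15.8, lay 2711 kb from LNCaP and had a LNCaP-abl peak 458 bp away. The sites chr4:20701839-20702294, with a score of 21.1, and chr1:142618636-142619241, with a score of 41.1, had gaps of 2678 and 2312 kb.

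At the other extreme, 308 moderate sites (8.20%, 7.34 to 9.12) lay less than 1 kb from a LNCaP peak without touching it, with a median gap of 415.5 bp. Nearly all of these sat beside a second LNCaP-abl peak: 281 of the 308 (91.2%) had one within 1 kb, and at 274 (89.0%, 84.9 to 92.2) a LNCaP-abl peak that did overlap LNCaP lay that close. The LNCaP peaks beside them had a median score of 6.02. By score the leading site of this kind was chr16:698738-700019, 1282 bp wide with a score of 49.96, whose nearest vehicle peak scored 4.81 at a distance of 514 bp. At chr9:14312992-14313441, with a score of 49.2, the neighbouring DHT peak scored 4.64 and the vehicle peak 5.66. The wide site on chromosome 8, with a score of 48.6, was 629 bp from a vehicle peak scoring 5.29. The site chr3:38496361-38497123, with a score of 48.2, flanked a strong common site: the LNCaP-abl peak 151 bp away scored 330.0, the DHT peak 46.1 and the vehicle peak 43.7. The fifth, chr5:107005788-107006399 with a score of 47.9, was 284 bp from a DHT peak with a score of 2.64. With LNCaP-abl peaks less than 1 kb apart joined into 1 site each, 1.03% of the moderate sites lay within 1 kb of LNCaP. Joining merges such sites with a LNCaP-abl peak that overlaps LNCaP and takes them out of the set. A lower share therefore follows from the setting.

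**Figure D4:**
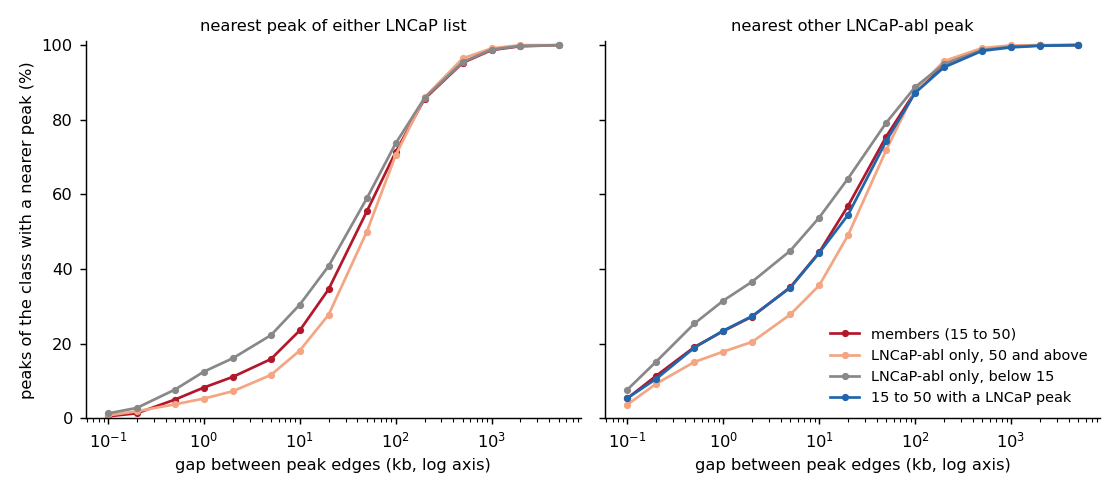
Cumulative share of peaks (%) with a neighbour nearer than the gap on the log x axis (kb between peak edges), for the nearest LNCaP peak (left) and the nearest other LNCaP-abl peak (right); red is the moderate sites, orange and grey the LNCaP-abl-only peaks above and below their score range, and blue the shared peaks of the range. On the left red lies between orange and grey at 10 kb, with 23.5% against 18.1% and 30.4%, and on the right red and blue run together.

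Among LNCaP-abl peaks, moderate sites were spaced like the shared peaks of the range. Another LNCaP-abl peak lay less than 10 kb from 44.4% (42.8 to 46.0) of the moderate sites, 44.3% (42.1 to 46.4) of the shared peaks and 44.7% (44.0 to 45.4) of all LNCaP-abl peaks. Within 1 kb the shares were 23.3% (22.0 to 24.7), 23.5% (21.7 to 25.3) and 24.2% (23.6 to 24.8). The difference between the first 2 classes was thus smaller than the interval of either. The neighbours differed a little in kind from those of the shared peaks: the nearest LNCaP-abl peak was itself LNCaP-abl only for 61.5% (59.9 to 63.1) of the moderate sites, against 56.2% (54.0 to 58.3) of the shared peaks and 59.6% (58.9 to 60.2) of all LNCaP-abl peaks. LNCaP-abl-only peaks of other scores had about the same share as the moderate sites. It was 61.0% (58.4 to 63.6) at scores of 50 and above and 62.0% (60.8 to 63.1) below 15. The nearest LNCaP-abl peak was another moderate site for 760 of the moderate sites (20.2%, 18.96 to 21.6), near the 18.2% that moderate sites make up of the whole list. For the 876 moderate sites with a neighbour within 1 kb, that neighbour had the higher score at 358 (40.9%, 37.6 to 44.2) and a score of 50 or more at 221 (25.2%, 22.4 to 28.2). Over the nearest neighbours of all 3756 moderate sites these shares were 47.4% (45.8 to 49.1) and 30.8% (29.4 to 32.3). In the whole list, 7014 of 20621 peaks scored 50 or more. With LNCaP-abl peaks less than 1 kb apart joined, 28.3% of the moderate sites had another LNCaP-abl site within 10 kb.

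By chromosome, moderate sites were most numerous on chromosome 19, with 348 sites or 9.27% of the set (8.36 to 10.2). Chromosome 1 followed with 311 sites and chromosome 17 with 268. Per megabase, chromosome 19 held 5.89 sites and chromosome 17 held 3.30, against 0.449 on chromosome 18. Set against the number of protein-coding gene names on each chromosome in RefSeq's GRCh38.p14 table, the spread was narrower, at 240 sites per 1000 names on chromosome 19, 257 on chromosome 22 and 130 on chromosome 18. The Y chromosome held 3 sites.

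The shared peaks of the range give a closer yardstick, because they come from the same library and lie within the same score bounds. Their scores still ran higher, with a median of 32.5 against 25.9 for the moderate sites, and the ratios below are not matched for score. On the X chromosome moderate sites took a larger share than the shared peaks, with 153 sites or 4.07% of the set against 2.71%. The first divided by the second gives 1.51 (1.11 to 2.07). Shared peaks are set by the LNCaP lists, so this ratio also depends on how many LNCaP peaks a chromosome holds. The X chromosome held 154 of 9744 vehicle peaks and 83 of 7105 DHT peaks, against 490 of 20621 LNCaP-abl peaks. Chromosome 18 held 186 vehicle, 148 DHT and 288 LNCaP-abl peaks. Chromosome 4 gave 1.44 (1.05 to 2.00). Chromosomes 3 and 6 gave 1.36 (1.05 to 1.78) and 1.33 (1.03 to 1.72). The smallest ratio with an interval away from 1 was that of chromosome 18, where 35 moderate sites (0.932%) stood against 52 shared peaks (2.43%), giving 0.384 (0.243 to 0.601). Chromosomes 9, 1 and 2 followed with 0.670 (0.528 to 0.850), 0.743 (0.626 to 0.883) and 0.795 (0.643 to 0.985). On chromosome 19 the ratio was 1.17 (0.970 to 1.41), so its many moderate sites went with many shared peaks. Of 24 chromosomes compared, 4 had an interval above 1 and 4 below, and the intervals were not adjusted for that number. The intervals of chromosomes 18 and 1 stayed below 1 in all 8 alternatives. That of chromosome X included 1 at scores of 20 to 40 (0.914 to 2.14), and that of chromosome 9 in 1 alternative. The other 4 were less stable: the interval included 1 in 4 of the 8 alternatives for chromosomes 4 and 6 and in 3 for chromosomes 3 and 2. Under the reciprocal overlap rule chromosome X stood at 2.71 and chromosome 2 at 1.08, which turns its direction.

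The same ratio was taken for LNCaP-abl peaks scoring 50 and above, which are other peaks of the same libraries set against the same LNCaP lists. The ratio was 2.42 (1.56 to 3.71) on the X chromosome and 1.45 (1.13 to 1.84) on chromosome 6. It was 0.780 (0.634 to 0.953) on chromosome 1. On chromosomes 9 and 18 it was 0.730 (0.513 to 1.02) and 0.592 (0.304 to 1.07), with intervals that include 1. Several chromosomes differed from the moderate sites. Chromosome 4 had 0.845 (0.606 to 1.16) and chromosome 3 had 1.05 (0.816 to 1.34), where the moderate sites had intervals above 1. Chromosomes 19, 20 and 22 had 1.47 (1.16 to 1.84), 1.43 (1.04 to 1.95) and 1.51 (1.08 to 2.09), where the intervals of the moderate sites included 1 and chromosome 20 lay on the other side of it, at 0.792 (0.573 to 1.10). Whether the 2 score classes differ was not tested.

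**Figure D5:**
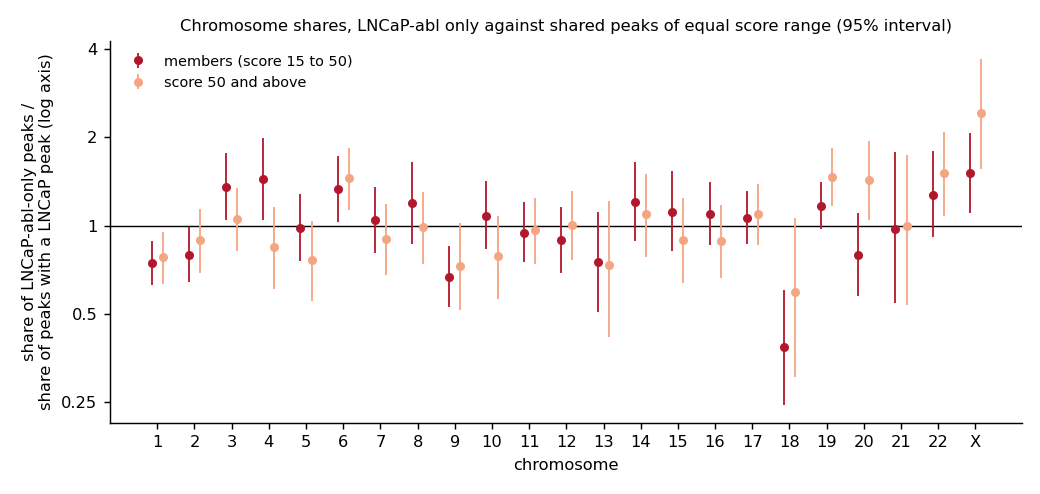
Ratio, on a log axis, of a chromosome's share of LNCaP-abl-only peaks to its share of LNCaP-abl peaks with a LNCaP peak, for the moderate sites (red, left) and for scores of 50 and above (orange, right), with 95% exact intervals; the Y chromosome is left out. Chromosome X is above 1 in both, at 1.51 and 2.42, and chromosome 18 is lowest in both, at 0.384 and 0.592.

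Moderate sites were spread thinly over the genome with a few crowded megabases. They fell in 1475 of the 2484 windows of 1 Mb that held a peak of any list, and 655 of these windows had a single site. The 36 windows with 10 or more sites held 442 of them (11.8%). That number of windows follows the score range, with 6 at scores of 20 to 40 and 110 at 10 to 60, and it was 77 under the reciprocal overlap rule, 74 against the better-scoring 50% of each LNCaP list and 20 with LNCaP-abl peaks joined. The most crowded was chromosome 19 from 1 to 2 Mb, with 24 moderate sites among 129 LNCaP-abl peaks. That is 18.6% of the peaks there, close to the 18.2% of the whole list. LNCaP-abl-only peaks of any score made up 95 of the 129, against 57.8% of the whole list. Scores of the 24 moderate sites in the window ran from 15.4 to 44.6 with a median of 25.6, and 15 of the 24 had a LNCaP peak within 10 kb. Its highest-scoring site was chr19:1438094-1439048. Chromosome 17 from 7 to 8 Mb held 21 sites among 70 LNCaP-abl peaks (30%), led by chr17:7297492-7298479 with a score of 48.4. Tied behind it with 17 sites each were chromosome 19 from 49 to 50 Mb and chromosome X from 153 to 154 Mb. The former had 47 LNCaP-abl peaks (36.2% moderate sites) and was led by chr19:49055141-49055651. The latter had 34 LNCaP-abl peaks (50% moderate sites) and was led by chrX:153990942-153991522. The windows were picked for their many moderate sites, so these shares describe the choice. The X window had the higher scores of the tied pair, with a median of 33.0 against 25.2, and the wider sites, with a median of 720 against 470 bp. In these 4 windows the LNCaP lists were not empty: the chromosome 17 window had 21 DHT and 20 vehicle peaks, and the X window 4 DHT and 9 vehicle peaks.

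Windows with moderate sites and no LNCaP peak at all numbered 153 and held 212 sites (5.64%). The fullest were chromosome 16 from 74 to 75 Mb and chromosome X from 133 to 134 Mb, each with 5 moderate sites among 7 LNCaP-abl peaks. All 7 were LNCaP-abl only, a class in which moderate sites make up 31.5% over the whole list. Both windows were picked as the fullest of the 153, so their counts describe the choice.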

How the data were processed

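TRIM24 ChIP-seq peak lists of 3 libraries were used, grouped by their labels. Per the submitters' processing notes, FastQC 0.10.0, Bowtie 0.12.7 and MACS2 2.0 were used with build hg19. The sources used here do not say which control, read filters or cutoff were applied. Each deposited list has 5 columns without a header, the last a −log10 p-value or q-value score from the authors' peak caller; which of them is not stated. Each list appears to come from 1 library. Scores were used within a list to describe and filter peaks, and depth is unknown.

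Overlaps and edge-to-edge gaps were computed in Python 3.11.15 (numpy 2.4.6, pandas 2.3.3, scipy 1.17.1). They were tested on simulated lists and gave the same peaks as bedtools 2.31.1. Shares carry exact Clopper-Pearson intervals, medians exact order-statistic intervals, and ratios of shares intervals from the exact binomial interval of both counts. Neighbouring peaks are not independent, so these are too narrow. Windows of 1 Mb count peaks by midpoint, and sites per megabase take the end of a chromosome's last peak in the 3 lists as its length. Figures used matplotlib 3.10.9.

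The sites, lists and tests were chosen with earlier results of these data known. Named sites follow a rule on score, width, distance and crowding, with ties broken by chromosome name and start. Start-site, gene-list, motif and base-composition analyses had been planned. They need hg19 annotation or sequence and were left out, because the reference tables used here are of GRCh38.p14. Alternatives covered overlap, peak width, score range, LNCaP threshold and joining of peaks.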

Additional observations from a re-analysis of the deposited data

How the results depend on the processing

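No paired analysis was possible because the lists stand for 1 library per condition, which also leaves no replicate to omit. Across 9 alternatives, 103 of 147 recomputed values stayed within the interval of the value reported, or within 1.5 times a count. Leaving out chrM, chrY and unplaced sequences moved none of its 19. Joining LNCaP-abl peaks less than 1 kb apart was chosen after seeing the data.

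A reciprocal overlap of at least 50% made 24.6% of LNCaP-abl peaks and 86.0% of the range moderate sites, with median widths of 585 bp without and 463 bp with a LNCaP partner (ratio 1.26, reversed from 0.812). Then 77 windows of 1 Mb held 10 or more sites. The chromosome ratios became 1.08 on chromosome 2 (reversed), 1.94 on 3, 0.935 on 19 and 2.71 on X. With peaks of 400 bp, 9.32% of sites lay less than 1 kb from LNCaP.

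Counting a LNCaP peak less than 1 kb away as shared gave 16.7% of LNCaP-abl peaks, 58.4% of the range, a shared median width of 623.5 bp and a width ratio of 0.852. The share within 10 kb of LNCaP was then 16.7%, as follows from removing the nearest sites, and 39.9% had a LNCaP-abl peak within 10 kb. The range of 20 to 40 gave 2189 sites (10.6%), 543 bp, a width ratio of 0.851 and 6 crowded windows. The range of 10 to 60 gave 5918 sites (28.7% of the list, 65.8% of the range), 465 bp, a ratio of 0.710, 46.4% with a LNCaP-abl peak within 10 kb and 110 crowded windows.

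With only the better-scoring 50% of each LNCaP list, 24.0% of the list and 84.0% of the range were moderate sites. Their width was 554 bp, the ratio 0.871, the shares within 1 and 10 kb of LNCaP 4.04% and 14.4%, and crowded windows numbered 74. At 50 kb in place of 10 kb, 75.5% had another LNCaP-abl peak. Joined LNCaP-abl peaks (17895 sites) gave 62.2% of the range, widths of 580.5 bp and 737 bp, 1.03% and 15.8% within 1 and 10 kb of LNCaP, 28.3% with a LNCaP-abl peak within 10 kb and 20 crowded windows. Apart from the reasons named above, the causes were not tested. The start-site, gene-list, motif and base-composition results and their alternatives were not run. The unknown depth limits any reading of an absent LNCaP peak.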

Other observations

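Moderate sites can also be grouped by the stretch between neighbouring LNCaP peaks in which they lie, a grouping chosen after the values were seen. Such stretches held 3733 of the 3756 sites, 1832 stretches had a single site and 22 had 5 or more. The stretch with the most sites was on the X chromosome, from 47479562 to 48900634. Over 1.42 Mb it held 11 moderate sites among 19 LNCaP-abl-only peaks and, by construction, no LNCaP peak. The 11 sites scored between 16.3 and 37.6, with a median of 21.4, and spanned 397 to 964 bp. The leading one was chrX:48366865-48367571, and 10 of the 11 lay in the part of the stretch from that site to chrX:48814278-48815241. The stretch with the next most, on chromosome 3 from 128216937 to 128722701, held 7 moderate sites in 0.506 Mb, with scores of 21.9 to 45.1 and a median width of 713 bp. Of the 6 fullest stretches, 3 were on the X chromosome. Long stretches have more room for sites, and the number was not set against their length.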
